A study of Mus musculus with 5 samples.

Results

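The genes described here are 36 interferon stimulated genes, that is, genes whose transcription is switched on by type I interferon, and they were taken from a list of symbols chosen with earlier results of these data known. Of the 36 symbols, 33 had a probe set annotated to that symbol alone and so had a value, out of 19938 genes with a value on the array. Expression was read in CD45+ cells, the leukocytes, which were isolated by flow cytometry from the pancreas of 5 female mice of the strain WT NOD at 10 weeks of age. NOD mice develop autoimmune diabetes spontaneously as leukocytes infiltrate the islets. All 5 mice form 1 group of the same strain, sex and age with no control strain and no interferon-treated group, and the T2 value, a relaxation time from magnetic resonance imaging done just before the pancreas was taken, is the label in which they differ. In ascending order the labels give 28.98 ms for mouse 5, then 30.02 ms for mouse 4, 32.77 ms for mouse 3, 35.24 ms for mouse 2 and lastly 35.3 ms for mouse 1. Nothing in the labels gives a treatment, and each mouse has 1 array. The question was whether these transcripts varied with the MRI signal and whether they varied together across the 5 mice.

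Type I interferons signal through the receptor chains Ifnar1 and Ifnar2 and the kinases Jak1 and Tyk2 to transcription factors, among them Stat2 and Irf9, which bind a short DNA element in the promoters of responding genes. The induced proteins sense or destroy foreign RNA, restrict viral entry and release, or feed back on the pathway, and a raised level of the set is commonly read as a sign of interferon exposure. In NOD mice and in people at risk of type 1 diabetes an interferon signature has been described before overt disease. A CD45+ gate holds many cell types, and in such a mixed sample fewer cells of a type and less RNA per cell cannot be told apart.

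The DNA element is the interferon stimulated response element, whose core is written here as GAAANNGAAA. It was searched on both strands of the RefSeq promoters of GRCm38.p6, a C57BL/6J genome and not that of NOD, in windows of 250 bases before to 50 bases after each start of transcription. Of the 36 listed genes 26 had a promoter entry, and 13 of these (50%) held the core, against 1079 of 27025 genes in the whole table (3.99%) and 1131 of 32851 promoters (3.44%). A second element, the gamma activated sequence TTCNNNGAA, which reads the same on both strands, was found in 6 of the 26 (23.1%) and in 9.55% of all genes; in Bst2 it overlapped the response element core. A match describes the letters in the window and does not show that a factor binds there.

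The following promoter stretches are shown because they carry the sequence feature that the listed genes share most often. They run 5′ to 3′ on the strand of the gene, with every base of a response element core in capitals, and positions count from 0 at the start of transcription. The Isg15 promoter held 3 overlapping cores from -78 to -57, at chr4:156200863-156200908 on the minus strand. Ifit1 held 2 cores from -104 to -76, at chr19:34640773-34640825 on the plus strand. Ifit3 held 2 from -156 to -113, at chr19:34583361-34583428 on the plus strand. In both Ifit genes, as in Rsad2 and the Trim30a promoter shown, the cores lie on the opposite strand and so read as TTTC boxes. Oas3 had 1 core at -75 to -66, at chr5:120777713-120777746 on the minus strand. Rsad2 had 1 at -120 to -111, at chr12:26456551-26456584 on the minus strand. Bst2 had 2 from -130 to -115, at chr8:71537575-71537614 on the minus strand. Of the 2 promoters of Trim30a, the one shown had 1 core at -36 to -27, at chr7:104465208-104465241 on the minus strand. Oas1a and Oas1g each had 2 cores next to the start of transcription, within the same 40 bases.
Isg15: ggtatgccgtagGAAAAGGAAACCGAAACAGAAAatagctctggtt
Ifit1: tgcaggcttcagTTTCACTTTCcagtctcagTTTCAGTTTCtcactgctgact
Ifit3: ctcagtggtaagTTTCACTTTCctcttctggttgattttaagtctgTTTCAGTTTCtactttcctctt
Oas3: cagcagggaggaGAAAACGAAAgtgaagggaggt
Rsad2: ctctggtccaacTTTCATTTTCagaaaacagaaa
Bst2: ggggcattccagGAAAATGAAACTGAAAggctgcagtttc
Trim30a: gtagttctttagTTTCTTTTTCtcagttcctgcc

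Ddx58, Ddx60, Eif2ak2 and Ifih1 completed the 13 genes with a core, and in Ddx58, Eif2ak2 and Ifih1 the core lay just after the start of transcription. The core was found in 4 of the 12 genes with a promoter entry whose mean level passed the filter described below, in 7 of the 11 under it and in 2 of the 3 without a value.

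**Figure D1:**
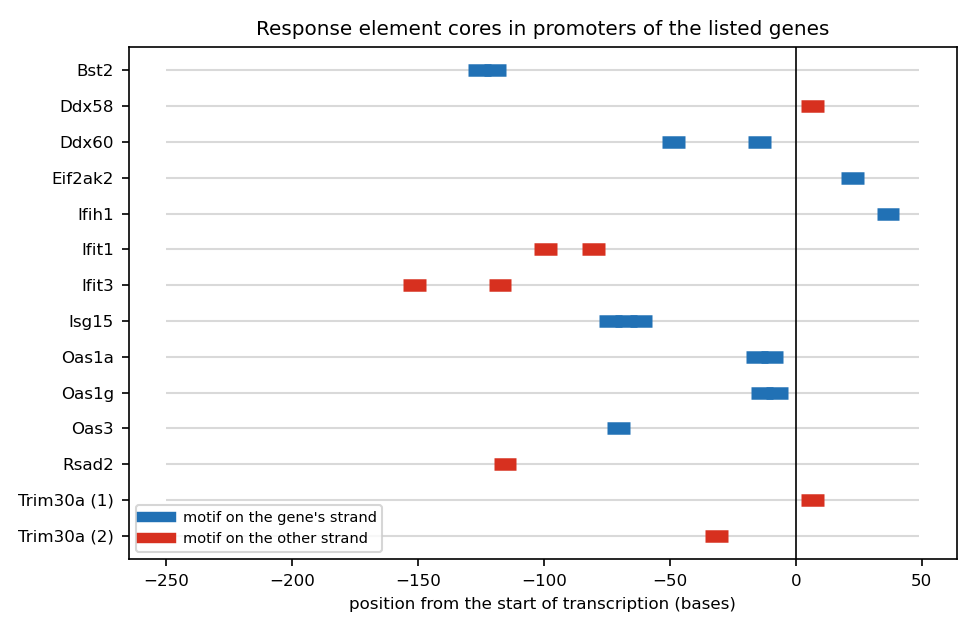
Each line is a RefSeq promoter of a listed gene from 250 bases before to 50 bases after the start of transcription (x axis, bases), and bars mark response element cores on the gene's strand (blue) or the other strand (red). Trim30a has 2 promoters in the table; the cores of Isg15 overlap, and those of Ddx58, Eif2ak2 and Ifih1 and of 1 Trim30a promoter lie after the start.

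Values are log2 of the deposited linear intensities, and the arrays had medians between 4.57 and 4.61 on that scale. A mean log2 intensity over the 5 mice of at least 6 was taken as expressed. This filter was passed by 17 of the 33 measured genes (51.5%), against 33.1% of all genes with a value. Isg15, the ubiquitin-like modifier, and Oas1g shared their probe sets with another gene symbol and were given no value, and Ifi44 was not analysed here. The genes nearest the threshold were Ifih1, with a mean of 6.04, just inside, and Oas2 and Ddx60, with means of 5.98 and 5.94, just outside.

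Several genes commonly used as indicators of interferon exposure were under the filter. The 3 Ifit genes, whose proteins bind viral RNA, had means of 4.88 for Ifit1, 5.55 for Ifit2 and 3.81 for Ifit3. The antiviral dynamin-like GTPases Mx1 and Mx2 had means of 4.31 and 4.02, and Rsad2, the radical SAM enzyme viperin, 4.41. Cmpk2, a mitochondrial nucleotide kinase that neighbours Rsad2, had 5.42, Usp18, the protease that removes Isg15 from proteins and dampens receptor signalling, 5.47, and Eif2ak2, the RNA-activated kinase PKR, 4.97. The expressed genes included Sp100, a nuclear body protein, at 9.29 ± 0.15, Trim30a, a tripartite motif protein, at 8.52 ± 0.02, the RNA sensor Ddx58 (RIG-I) at 8.10 and Samd9l, a cytoplasmic antiviral factor, at 7.82 ± 0.26 (SD, n = 5). Levels of different probe sets are not on a common scale, so no order between genes is read from them.

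**Figure D2:**
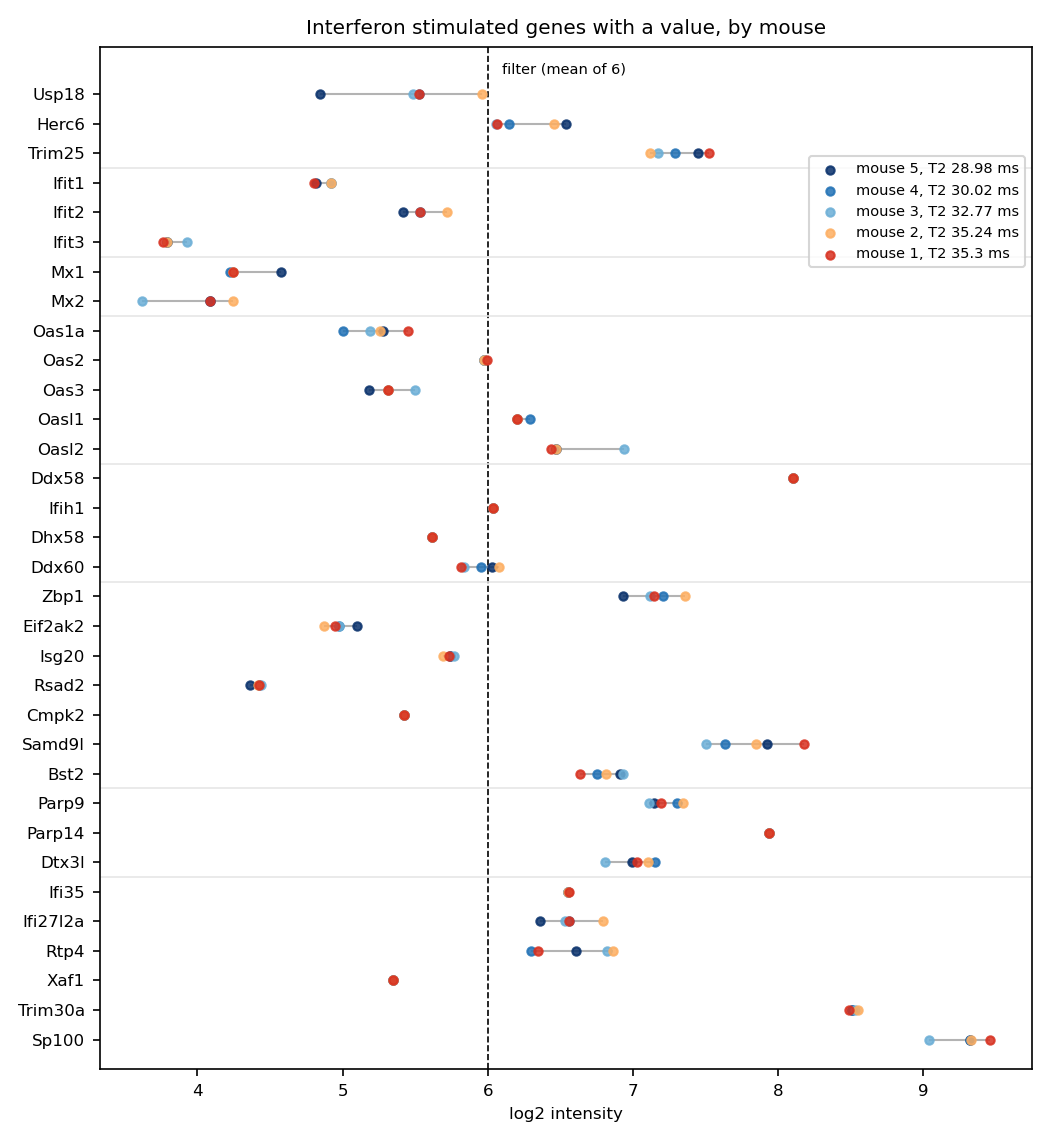
Log2 intensity (x axis) of the 33 interferon stimulated genes with a value, 1 point a mouse, coloured by T2, with grey bars from the lowest to the highest mouse and rules between functional groups. The dashed line marks the filter on the mean, passed by 17 genes; most genes lie within a narrow range over the 5 mice, and Usp18 has the widest.

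No gene of the set was called against T2. In limma's moderated fit of log2 intensity on T2 over 6603 genes, 0 of the 17 expressed genes passed an adjusted p under 0.05, as did 0 of all genes tested (0%), and 0 of the 17 had an unadjusted p under 0.05, against 5.29% of all genes. Slopes ran from -0.02 log2 per ms in Herc6 to 0.04 in Ifi27l2a, with a lowest adjusted p of 0.828 by limma. Over the whole T2 range of 6.32 ms these slopes are fitted ratios, highest over lowest T2, between 0.903 and 1.19. Of the 17 genes 9 had a positive slope, against 28.9% of all genes tested, 5 a negative slope, against 67.9%, and 3 a slope of 0. The median slope was 0.00089, against -0.0074 over all genes tested. The value over all genes rests largely on mouse 5: without it the median was -0.00077 and 51.4% of slopes were negative. This split depends on the scaling of the arrays: with each array centred on its median or quantile normalized again, 15 slopes were positive and 2 negative, against 37.4% and 39.9% negative slopes over all genes, the median over all genes was 0.0063 and 0.0050, and Trim25, Oasl1 and Dtx3l changed direction.

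The intervals show which ratios remained compatible with the fit to the 5 arrays. The 95% interval of the fitted ratio lay within 1.5-fold either way for 11 of the 17 genes, as for 72.8% of all genes tested. The widest intervals were those of Samd9l, from 0.675 to 1.96, and Rtp4, from 0.640 to 1.92. For these 2 genes a fall or a rise anywhere within those limits remained compatible with the 5 arrays. The lowest lower limit of a slope was -0.13 log2 per ms, in Herc6. The mean of 8 expressed macrophage markers had an ordinary least-squares slope of -0.19 ± 0.018 (SE, n = 5).

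**Figure D3:**
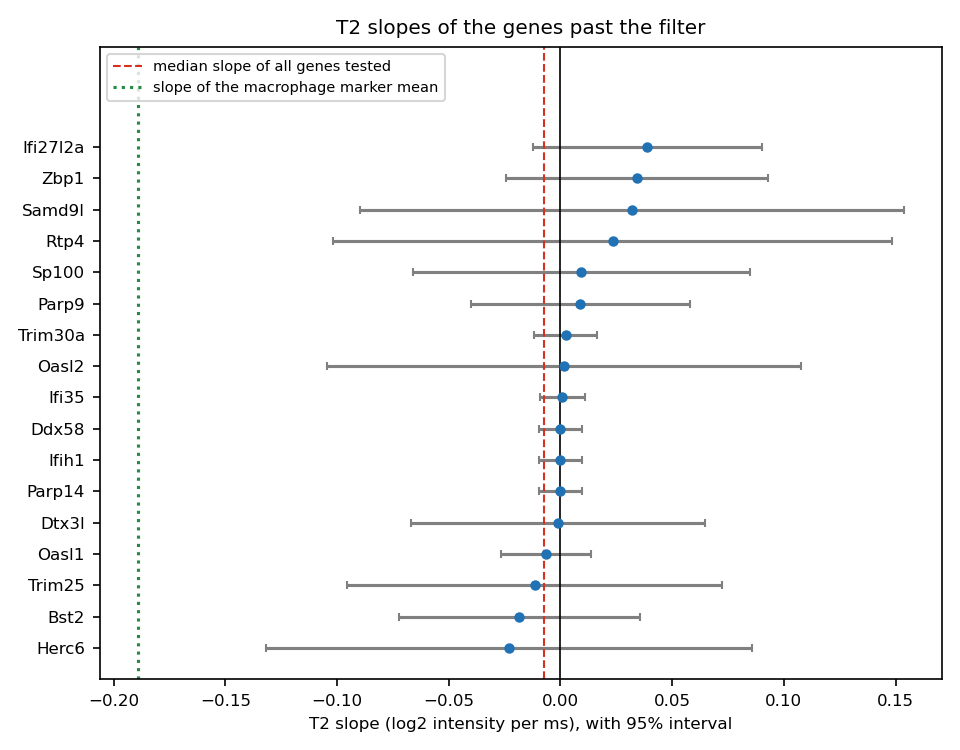
T2 slopes of the 17 expressed interferon stimulated genes in log2 intensity per ms (points, x axis) with 95% intervals from the moderated fit, n = 5 mice. All intervals include 0; the dashed line is the median slope of all genes tested (-0.0074) and the dotted line the slope of the macrophage marker mean (-0.19).

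Of the 3 measured genes of Isg15 conjugation, Usp18 varied most between mice. It had the widest range of the 33 genes, with log2 intensities of 4.84, 5.53, 5.48, 5.96 and 5.53 in mice 5, 4, 3, 2 and 1. Mouse 5 was the lowest and mouse 2 the highest, a 2.17-fold range in signal that stayed under the filter in all mice. Without a filter its slope was 0.11 ± 0.047 log2 per ms (limma adjusted p = 0.813 over all genes). Herc6, the mouse ligase for Isg15, read 6.54, 6.15, 6.05, 6.46 and 6.06 in mice 5, 4, 3, 2 and 1. Its high values were thus in the mouse of lowest T2 and in a mouse of high T2. Trim25, a ligase that acts on Ddx58 and is itself inducible, read 7.45, 7.29, 7.17, 7.12 and 7.52 in mice 5, 4, 3, 2 and 1, with its extremes in mice 2 and 1, whose T2 values differ by 0.06 ms.

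The 3 Ifit genes and the 2 Mx genes were under 6 in every mouse. Ifit1 ranged from 4.80 to 4.92 over the 5 mice. Ifit2, which also promotes apoptosis, was lowest in mouse 5 at 5.42 and highest in mouse 2 at 5.72, and ranged over 1.23-fold. Ifit3 read 3.93 in mouse 3 and between 3.76 and 3.79 in the others. Mx1 is carried as a defective allele by many inbred mouse strains, and it read 4.58 in mouse 5 and between 4.23 and 4.25 in the other mice. Mx2 read 4.09, 4.09, 3.62, 4.25 and 4.09 in mice 5, 4, 3, 2 and 1, which sets mouse 3 below the rest.

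The active enzymes of the 2′-5′ oligoadenylate synthetase group make the messenger that activates RNase L, and the group also takes in Oas-like genes. Of its 5 genes with a value 2 were expressed, the Oas-like genes Oasl1 and Oasl2. Oas1a, Oas2 and Oas3 were under the filter. Oasl1, an inhibitor of Irf7 translation, was at 6.20 in 4 mice and at 6.29 in mouse 4. Oasl2 was at 6.47 in mice 5, 4 and 2, at 6.44 in mouse 1 and at 6.94 in mouse 3. The ratio of the highest to the lowest mouse was 1.06 for Oasl1 and 1.42 for Oasl2. Oas1a, which lies beside its near copy Oas1g, read 5.28, 5.00, 5.19, 5.26 and 5.45 in mice 5, 4, 3, 2 and 1. Oas2 was at 5.97 in 4 mice and 5.99 in mouse 1, and Oas3 ranged from 5.18 in mouse 5 to 5.50 in mouse 3.

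Of the 4 RNA helicases, which detect viral RNA in the cytoplasm, 3 had the same value on every array. Ddx58 was at 8.10 in all 5 mice, Ifih1 (MDA5), a sensor of long double-stranded RNA and a gene linked to human type 1 diabetes, at 6.04 in all 5, and Dhx58 (LGP2), their regulator, at 5.62 in all 5. Ddx60 ranged from 5.81 in mouse 1 to 6.08 in mouse 2. Identical deposited values on several arrays were common in the set. Of the 17 expressed genes 6 had the same value on 3 or more arrays, against 38.2% of all genes tested, and 3 (Ddx58, Ifih1 and Parp14) had it on all 5, against 3.27%. Among all 33 genes these counts were 16, against 58.9% of all genes with a value, and 6, against 9.03%, with Dhx58, Cmpk2 and Xaf1 among the 6. In 8 of the 27 genes with any spread (29.6%), 1 mouse lay apart from the other 4 by more than 0.71 of the range, as in 45% of all genes with any spread. Values that are the same on all 5 arrays have no residual spread, so the narrow intervals of Ddx58, Ifih1 and Parp14 rest on the prior of the moderated fit. They do not show that these transcripts were equal in the 5 mice.

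Among the other sensors and effectors, Zbp1, a sensor of left-handed nucleic acids that triggers necroptosis, had 6.93, 7.21, 7.12, 7.36 and 7.14 in mice 5, 4, 3, 2 and 1. Mouse 5 was lowest and mouse 2 highest, and the fitted ratio was 1.16 (95% interval 0.899 to 1.502; limma adjusted p = 0.828). Samd9l read 7.93, 7.63, 7.50, 7.84 and 8.18 in mice 5, 4, 3, 2 and 1, and was highest in mouse 1 and lowest in mouse 3. It was the 1 gene of the 17 with a range of at least 1.5-fold between mice, at 1.60-fold, where 13% of all genes tested reached that range. Bst2 (tetherin), which holds budding virus at the cell surface and also marks plasmacytoid dendritic cells, read 6.91, 6.75, 6.93, 6.82 and 6.64 in mice 5, 4, 3, 2 and 1. Its fitted ratio was 0.922 (0.728 to 1.17; limma adjusted p = 0.8495). The mean of 8 expressed plasmacytoid dendritic cell markers, a list that holds Bst2, ranged from 6.88 in mouse 4 to 7.21 in mouse 5. Isg20, an exonuclease, ranged from 5.69 to 5.76, Rsad2 was at 4.36 in mouse 5 and between 4.42 and 4.44 in the other mice, and Eif2ak2 ranged from 4.87 in mouse 2 to 5.10 in mouse 5. Without a filter the slope of Eif2ak2 was -0.024 ± 0.0083 log2 per ms. Its unadjusted limma p of 0.053 was the lowest of the 33 genes (limma adjusted p = 0.813 over all genes).

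All 3 genes of the ADP-ribosylation group were expressed. Parp9 and Dtx3l, which act as a complex and are transcribed from a shared promoter region, both had their lowest value in mouse 3. Parp9 had 7.15, 7.30, 7.11, 7.35 and 7.19 in mice 5, 4, 3, 2 and 1. Dtx3l had 6.99, 7.15, 6.81, 7.10 and 7.03 in the same order of mice, so mice 4 and 2 were the highest for both. Their slopes were 0.0089 ± 0.017 and -0.0013 ± 0.023 log2 per ms (SE, n = 5), each smaller than its error. Parp14 was at 7.94 in all 5 mice.

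Of the remaining induced genes, Ifi27l2a, a small mitochondrial protein, had the lowest p against T2. It read 6.36, 6.56, 6.53, 6.79 and 6.56 in mice 5, 4, 3, 2 and 1, and its slope of 0.04 ± 0.018 log2 per ms had an unadjusted p of 0.102 (limma adjusted p = 0.828). With each mouse left out the slope ran from 0.0213 to 0.0557. Mice 1 and 2, of nearly equal T2, differed by -0.23 log2 in this gene (mouse 1 minus mouse 2), while mice 1 and 4 had the same value. Rtp4, a chaperone of receptor transport, read 6.61, 6.30, 6.82, 6.86 and 6.34 in mice 5, 4, 3, 2 and 1. Mice 3 and 2 were high and mice 4 and 1 low, an order that does not follow T2. Sp100 read 9.32, 9.32, 9.04, 9.33 and 9.46 in the same order, with mouse 3 the lowest. Trim30a read 8.51 in mice 5 and 4, 8.53 in mouse 3, 8.55 in mouse 2 and 8.49 in mouse 1. Ifi35, a cytoplasmic partner of Nmi, was at 6.55 in 4 mice and 6.56 in mouse 1, and Xaf1, an antagonist of the apoptosis inhibitor Xiap, was at 5.35 in all 5 mice.

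The expressed genes did not share 1 order of the mice. Leaving ties aside, mouse 5 held the single highest value of 1 gene, mice 4 and 3 of 2 genes each, mouse 2 of 5 and mouse 1 of 4. Mouse 2 thus led 29.4% of the 17 genes, and it led 12.3% of all genes tested. Over the 33 genes with a value it led 9, against 14.9% of all genes with a value. With centred or renormalized arrays mouse 2 led 7 of the 17 genes. The share over all genes was not computed for these scalings. The lowest value lay in mouse 3 for 5 of the 17 genes (29.4%), against 33.1% of all genes tested. With centred arrays this count in mouse 3 was 3. Usp18, Ifit2, Zbp1 and Ifi27l2a, a group noticed after the values were seen, were highest in mouse 2 and lowest in mouse 5. These are 4 of 33 genes, where 4.27% of all genes with a value had these 2 extremes. Eif2ak2 had the opposite extremes, at 5.10 in mouse 5 and 4.87 in mouse 2. Of all genes with a value 19.8% were highest in mouse 5 and 15.4% lowest in mouse 2. The mean of 13 expressed genes of the interferon gamma response was lowest in mouse 5 at 7.62 and highest in mouse 2 at 7.84. With the arrays as deposited, the mean of 37 expressed interferon stimulated genes outside the set went the other way. It was highest in mouse 5 at 7.55 and lowest in mouse 2 at 7.45. The array medians over all genes tested were themselves shifted by 0.079 log2 in mouse 5 and by -0.049 in mouse 2. These list means were not computed with centred arrays, so a direction apart from that shift is not read from them. The mean of 9 T cell genes peaked in mouse 2, with 8.90 there and 8.01 to 8.44 elsewhere, and was lowest in mouse 1. The mean of 4 NK cell genes also peaked in mouse 2, at 7.20, and was lowest in mouse 1, at 6.45. Whether the shares of T cells and NK cells play a part in these values was not tested.

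**Figure D4:**
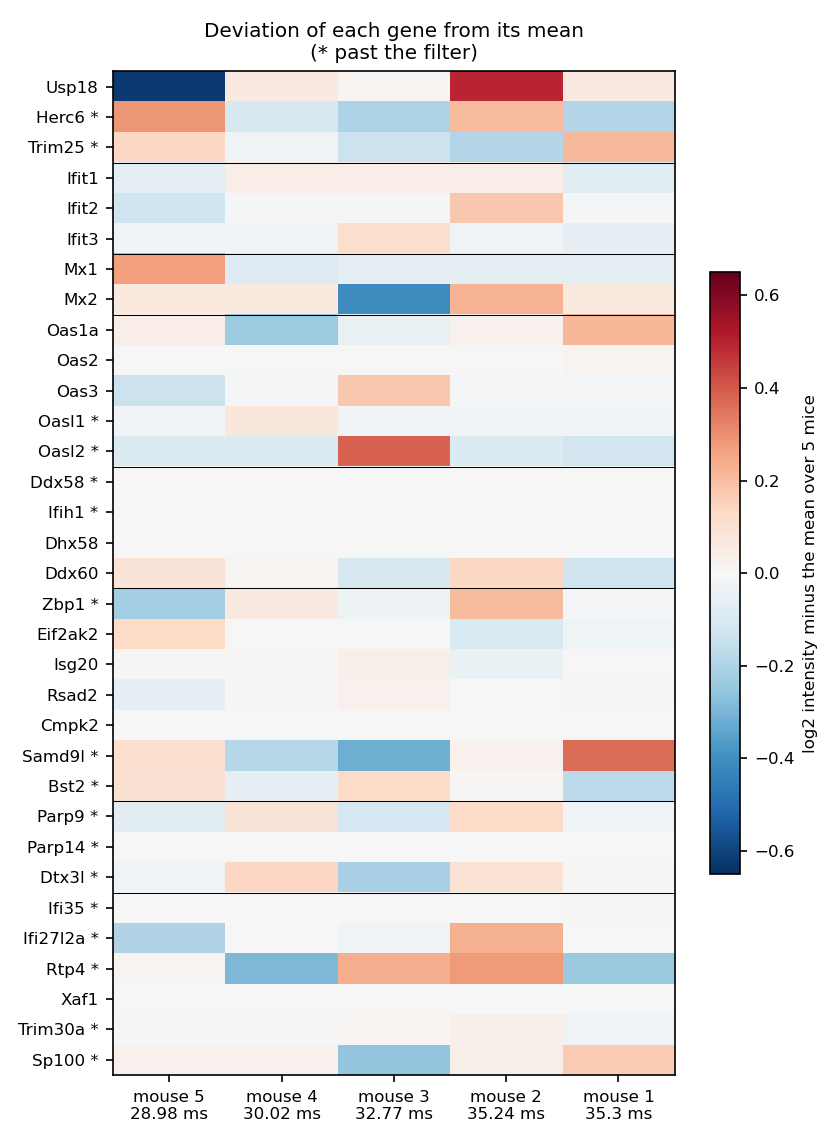
Log2 intensity of each of the 33 genes minus its own mean over the 5 mice (colour), with mice in order of T2 along the x axis and horizontal rules between functional groups. Usp18 departs most, low in mouse 5 and high in mouse 2; asterisks mark genes past the filter, and genes with white rows had the same value on all 5 arrays.

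The mean over the 17 expressed genes was 7.18, 7.15, 7.14, 7.23 and 7.17 in mice 5, 4, 3, 2 and 1. With the arrays as deposited these means lie within 0.09 log2 of each other. Their slope on T2 was 0.0053 ± 0.0060 log2 per ms (ordinary least squares, SE, n = 5), smaller than its error. With each mouse left out it ran from -0.00045 without mouse 2 to 0.0103 without mouse 5. The slope depends on the scaling: it was 0.0173 with renormalized and 0.0191 with centred arrays, with no error given for these. In the same mice the macrophage marker mean read 8.98, 8.96, 8.48, 7.86 and 7.86, high in the 2 mice of low T2. The SD of single genes over the mice had a median of 0.13 log2 in the 17 genes and 0.11 in all genes tested. Between mice 1 and 2 the absolute difference had a median of 0.13 log2 in the 17 genes and 0.072 in all genes tested. Between mice 5 and 4, whose T2 differs by -1.04 ms, these medians were 0.16 and 0.081. Of the 17 genes 9 were lower in mouse 1 than in mouse 2, 4 were higher and 4 equal, where 31.6% of all genes tested were lower. Relative to the middle of the 5 array medians over all genes tested, mouse 2 was shifted by -0.049 log2 and mouse 1 by 0. This split was not computed with centred arrays.

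**Figure D5:**
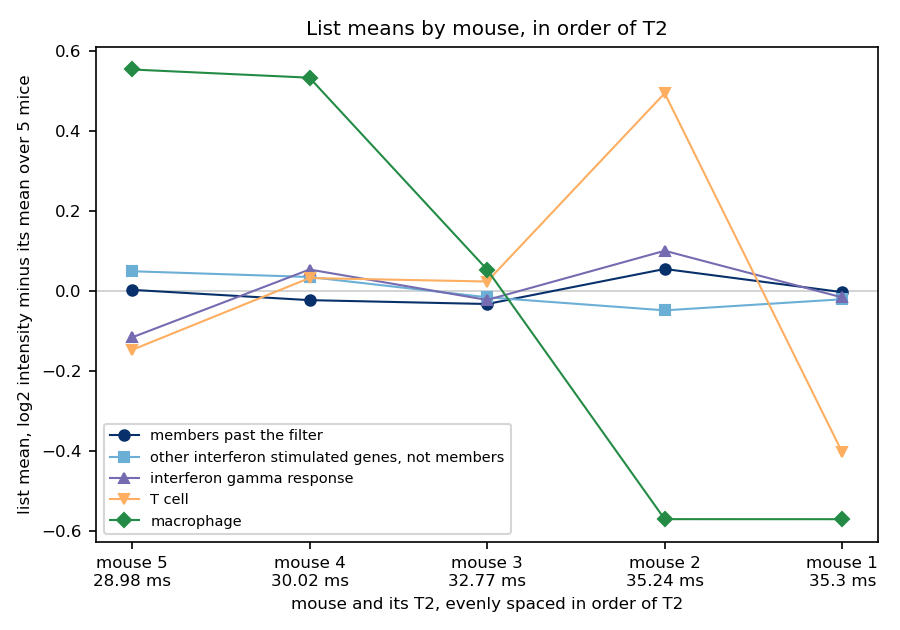
Mean log2 intensity over the expressed genes of each list, minus its mean over the 5 mice (y axis), with the mice evenly spaced in order of T2 (x axis); lines join the points of a list. With the arrays as deposited, the means of the 17 interferon stimulated genes lie within 0.09 log2 of each other over the mice. The macrophage mean lies more than 1 log2 lower in mice 2 and 1 than in mouse 5, and the T cell mean peaks in mouse 2.

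No gene of the upstream parts of the pathway was called. Of 9 measured genes of the type I interferon ligands and receptor, 2 passed the filter, the receptor chains Ifnar1 with 7.63 ± 0.041 and Ifnar2 with 8.13 ± 0.082 (SD, n = 5). The ligand Ifnb1 ranged from 3.14 to 3.42 and Ifna4 from 3.05 to 3.24, and the other ligand genes with a value were under the filter too. Among the kinases, STAT and IRF factors, all 10 measured genes were expressed, 4 with a positive and 6 with a negative slope. For this and the lists below, 28.9% of all genes tested had a positive and 67.9% a negative slope. Those shares depend on the scaling of the arrays. Irf9, the DNA-binding partner of Stat2, read 6.83, 6.95, 6.95, 7.17 and 6.91 in mice 5, 4, 3, 2 and 1, with its extremes in the same mice as Usp18. Irf2 and Irf8, IRF factors that can restrain or drive interferon genes, had slopes of -0.04 ± 0.023 and -0.03 ± 0.018. Of 13 expressed genes of nucleic acid sensing 6 slopes were positive and 7 negative, and Unc93b1, the carrier of endosomal Toll-like receptors, had the largest absolute moderated statistic, with a slope of -0.06 ± 0.037. Irf2 and Unc93b1 had extremes opposite to those of Irf9, highest in mouse 5 and lowest in mouse 2, but 1 extreme of each was close to another mouse. Irf2 was at 8.236 in mouse 2 and 8.237 in mouse 3, and Unc93b1 at 9.420 in mouse 5 and 9.417 in mouse 4. Of all genes tested 34.3% were highest in mouse 5 and 23.6% lowest in mouse 2.

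Of the 8 expressed inhibitors of interferon signalling 4 slopes were positive and 4 negative. Socs1, a feedback inhibitor of Jak kinases, read 5.70, 6.03, 6.20, 6.25 and 6.03 in mice 5, 4, 3, 2 and 1. It had a slope of 0.05 ± 0.026 (limma adjusted p = 0.828), with mouse 5 the lowest and mouse 2 the highest. Ptpn11, a phosphatase of the same list, was highest in mouse 5, as were 34.3% of all genes tested, and lowest in mouse 2, as were 23.6%. A longer list held 63 other interferon stimulated genes. Of its 37 expressed genes 15 had a positive and 21 a negative slope, against 28.9% and 67.9% of all genes tested. The list had a median slope of -0.0023. Slfn4, a Schlafen gene of myeloid cells, had the lowest p of this list. It read 7.76, 7.18, 7.30, 6.18 and 6.41 in mice 5, 4, 3, 2 and 1, a fitted ratio of 0.407 (95% interval 0.227 to 0.730; limma adjusted p = 0.601). Its values were high in the mice in which the macrophage marker mean was high, and the part of macrophages in it was not tested. In the interferon gamma response 9 of 13 slopes were positive, against 28.9% of all genes tested. Among the 9 were Psmb8, an immunoproteasome subunit, at 0.03 ± 0.013, and Irgm1, an immunity-related GTPase, at 0.06 ± 0.039 (SE, n = 5). In these 6 lists 0 genes passed the adjusted threshold of limma in either direction, and Slfn4 was the 1 gene with an unadjusted p under 0.05.

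As a check of the sort, Ptprc, the gene of CD45, had 11.06 ± 0.10 (SD, n = 5), and 0 of 7 measured islet endocrine and 0 of 6 fibroblast markers passed the filter. Of 6 endothelial markers 1 passed, with a mean of 8.47, and 6 of 8 measured acinar markers passed. The mean of these 6 acinar markers ranged from 6.60 in mouse 2 to 7.39 in mouse 1. The mean of 11 genes induced by tissue dissociation was 8.51, 8.06, 7.93, 7.69 and 7.77 in mice 5, 4, 3, 2 and 1, highest in mouse 5. The part of either list in the values of the interferon stimulated genes was not tested. The labels name no batch.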

How the data were processed

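Each of the 5 mice has 1 array, and this number limits the precision. The authors deposited probe-set intensities on a linear scale. Per the submitters' processing notes, the tools were RMA and Affymetrix Power Tools, whose versions, like the genome build, were not given in the sources used here. The RMA method quantile normalizes arrays and fits a median polish over each probe set. The intensities of 35556 probe sets ran from 2.87 to 19435. Pearson's r between arrays over probe sets was 0.980 to 0.989, and at most 31.0% of the values of a pair were equal, so every array was kept as its own sample.

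Here the intensities were put on the log2 scale. Platform annotation gave 21789 probe sets 1 symbol; 1621 had several and 12146 none, and neither was named. The set of highest mean represented a gene, and the 33 measured genes had 1 set each. Genes with a mean of at least 6 were fitted on T2 with lmFit and eBayes (limma 3.58.1, R 4.3.3; 3 residual degrees of freedom, two-sided, Benjamini-Hochberg over 6603 genes, threshold 0.05, 95% intervals). The fit was tested on simulated data whose planted slopes were larger than those of the listed genes. That test does not show whether slopes as small as theirs could be found. List slopes are ordinary least squares. P-values test a slope of 0 against the residual spread between mice, moderated over genes. With 1 array a mouse, this spread holds animal and technical variation together. The listed genes and the other gene lists were chosen with earlier results of these data known. Genes given by mouse are the 8 of highest mean, the 8 of highest SD, the 4 of lowest p in each direction and those that stand apart in 1 mouse; in other lists, genes among the 3 of largest moderated t. Others were given as ranges, and genes given by mouse beyond these were picked after their values were seen. Motifs were searched in RefSeq promoters. Other filters, scalings, variance models, weights, the rank of T2 and each mouse left out were tried.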

Additional observations from a re-analysis of the deposited data

Results flagged for a closer look

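In 8 of the 27 genes with any spread, 1 mouse stood apart from the other 4 because its distance to the next mouse was over 0.71 of the range of all 5. The same held in 45% of all genes with any spread. The rate of about 1 in 20 that chance gives is for values without ties and does not apply here, since 7 of the 8 had the same value on 3 or more arrays. Oasl2 was highest in mouse 3, at 6.94 with the others at 6.44 to 6.47, and Mx2 lowest there, at 3.62 with the others at 4.09 to 4.25. Ifit3 was highest in mouse 3 at 3.93, Mx1 in mouse 5 at 4.58, Oasl1 in mouse 4 at 6.29, Oas2 in mouse 1 at 5.99 and Ifi35 in mouse 1 at 6.56, and Rsad2 was lowest in mouse 5 at 4.36. The mean over the 33 genes with a value was highest in mouse 2, with 6.23 there and 6.16 to 6.18 elsewhere, a distance of 0.717 of the range; this was 1 of 8 list means screened, and the other 7 were not past 0.71. Of these 8 genes Oasl1, Oasl2 and Ifi35 passed the filter.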

How the results depend on the processing

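None of the listed genes passed the adjusted threshold under any of the 16 alternative fits or at a threshold of 0.10; the lowest adjusted p was 0.484, for Trim25. Of all genes tested 3 passed with a filter of 7, 4 with centred arrays, 4 with array weights, 35 without genes of equal values and 3 at 0.10. Expressed genes numbered 27 of 33 at a filter of 5, where 9545 of all 19938 genes passed, and 9 at a filter of 7, where 3563 passed. With no filter they numbered 33. Of these listed genes mouse 2 led 8, 3 and 9. It led 14.9% of all genes with no filter, and the share at filters of 5 and 7 was not computed. Negative slopes numbered 2 of 9 at a filter of 7, against 72.4% of all genes past it, and 10 of 33 with none, against 46.3%. With centred or renormalized arrays they numbered 2 of 17, against 37.4% and 39.9% over all genes. The median slope was 0.0144 with renormalized and 0.0146 with centred arrays and 0.0089 without genes of equal values, and the slope of the mean 0.0173 and 0.0191 with these scalings; mouse 3 was lowest in 3 genes with centred arrays. Of 258 slopes of single genes under alternatives 24 changed sign, in 10 genes. With renormalized and centred arrays Trim25 had 0.0013 and 0.0021, Oasl1 0.00036 and 0.0073 and Dtx3l 0.0116 and 0.0125; on ranks of T2 Dtx3l had 0.0011 and Oasl2 -0.0039; with array weights Herc6 had 0.0189. Leaving out each mouse gave slopes from -0.0086 to 0.083 for Samd9l, -0.0109 to 0.0235 for Sp100, -0.048 to 0.0109 for Trim25, -0.0055 to 0.0209 for Parp9, -0.0071 to 0.069 for Rtp4, -0.0014 to 0.0069 for Trim30a, -0.0173 to 0.0201 for Oasl2, -0.0143 to 0.0138 for Dtx3l and -0.062 to 0.025 for Herc6; without a change of sign, Zbp1 ran from 0.0108 to 0.0504, Ifi27l2a from 0.0213 to 0.0557 and Bst2 from -0.0305 to -0.00074. The slope of the mean over the 17 genes ran from -0.00045 without mouse 2 to 0.0103 without mouse 5 and was 0.0099 with array weights. The causes were not tested. No paired analysis was possible because the mice form 1 group.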
